A study of Mus musculus with 6 samples.

Results

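The genes described here make up the folding and oxidation machinery of the endoplasmic reticulum (ER), the compartment in which secreted and membrane proteins are folded. The list holds 10 genes, Ero1l, Hspa5, Pdia3, Pdia4, Pdia6, Calr, Canx, Dnajc3, Dnajb9 and Hyou1. Probes were taken where the gene name on the array equals one of these names. This found 7 of the 10 genes and 17 of the 41174 probes. Pdia3, Pdia4 and Pdia6 are carried by the array under the earlier names Grp58, Cai and Txndc7, and their 5 probes, found through the accession or a synonym in the RefSeq gene table, are given beside the others and counted apart. Ero1l is Ero1a in present nomenclature.

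RNA came from primary mouse embryonic fibroblasts, connective tissue cells grown from minced embryos of day 15 by the sample labels, and was hybridised to 6 two-colour Agilent Whole Mouse Genome arrays. Cells were wild type or Wrn Δhel/Δhel, which carry an in-frame deletion within the helicase region of Wrn, the mouse homologue of the human Werner syndrome gene, and both came from a mixed 129/Sv and Black Swiss background. Treated cells received 0.5 mM hydrogen peroxide (H2O2) for 1 hour and were collected 24 hours later, and the other cells were untreated. On the arrays of wild type replicates 1 and 2 and of mutant replicates 1 and 2, treated cRNA carried Cy5 and untreated cRNA Cy3. Replicates 3 and 4 set untreated cells of both genotypes against each other directly. The replicates are called biological duplicates, but how many embryos stood behind them was not given in the sources used here. No dye swap was made, and a probe that favours either dye carries this into each of its ratios.

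The direction of the 2 direct arrays is not settled by the sources. The labels put wild type RNA in Cy5, whereas the study's own list of mutant over wild type ratios runs as Cy5 over Cy3. Values of the direct arrays are given as Cy5 over Cy3, and as mutant over wild type where that list is followed. With the dyes of the labels every sign of these arrays turns. The genotypes were therefore also compared within Cy3 of the 4 treatment arrays, where labels and methods state the same dyes and where untreated mutant was set against untreated wild type on other arrays. Over 16205 probes with a mean log2 intensity above 6, direct Cy5 over Cy3 correlated with mutant minus wild type within Cy3 (r = 0.76). This r is taken across genes, which are not independent replicates.

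In the ER, Ero1l, an oxidase, passes oxidising equivalents to the protein disulfide isomerases, among them Pdia3, Pdia4 and Pdia6, which form and rearrange disulfide bonds in client proteins. Hydrogen peroxide is a product of the Ero1 reaction. Hspa5 (BiP, GRP78) is the Hsp70 chaperone of this compartment, Dnajc3 and Dnajb9 are its J-domain partners, and Hyou1 is a large Hsp70-related protein that exchanges its nucleotide. Calr and Canx, a soluble and a membrane-bound lectin, hold glycoproteins while they fold. When unfolded proteins accumulate, the sensors Ern1, Atf6 and Eif2ak3 start the unfolded protein response, in which Xbp1, Atf6 and Atf4 raise the transcription of many of these genes.

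The ER stress response element, CCAAT and CCACG separated by 9 bases, is the sequence through which Atf6 and Xbp1 are known to act on ER chaperone genes, so the members' promoters were searched for it. RefSeq promoter windows of GRCm38.p6, from 250 bases before to 50 bases after the start of the gene, were given for 9 of the 10 genes, and Hyou1 was not among them. The element was found on either strand in 5 of the 9 windows, against 39 of 32851 windows of all genes (0.119%). The 5 matches are shown because they mark which members share this known regulatory sequence. Capitals mark the CCAAT and CCACG letters, or their reverse complement in Calr, each sequence reads along the strand of the gene, and no base lies downstream of the gene's start.
Hspa5, chr2:34772020-34772048, plus strand: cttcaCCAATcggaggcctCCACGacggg
Pdia6, chr12:17266486-17266514, plus strand: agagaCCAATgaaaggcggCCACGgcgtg
Calr, chr8:84847070-84847098, minus strand: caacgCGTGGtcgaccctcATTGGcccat
Canx, chr11:50325795-50325823, minus strand: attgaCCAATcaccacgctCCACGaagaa
Dnajc3, chr14:118937822-118937850, plus strand: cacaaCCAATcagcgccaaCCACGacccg
The first capital stood between 65 bases (Hspa5) and 162 bases (Calr) before the start, with 98 bases in Pdia6, 105 in Dnajc3 and 145 in Canx. No window of Ero1l, Pdia3, Pdia4 or Dnajb9 held these letters. The second form of the element, ATTGG and CCACG separated by 1 base, occurred in none of the 9 windows and in 0.0365% of all windows. The core of a separate element, the unfolded protein response element, TGACGTGG, occurred in none of the 9 and in 0.676% of all windows, so that neither shares letters with a match of the first form here. A match describes the letters in the window only.

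Of the fibroblast markers, 9 of 10 were well above background in both dyes on every array. None of 4 epithelial and none of 4 endothelial markers was, against 2 of 5 macrophage, 2 of 4 neural and 4 of 5 skeletal muscle markers, the last including Myod1 and Myog. The summed log2 level of the muscle markers ran from 11.82 to 12.19 in Cy3 of the treatment arrays, and from 10.96 to 11.62 in Cy5. Of 9 fibroblast markers with a value, 6 were called higher and none lower on the direct arrays, against 10.2% and 9.76% of all probes. The marker median was 1.15, against 0.04 for all genes. Within Cy5 4 of 7 were called higher in treated mutant cells (median 2.10), against 1.00% of all probes (median of all genes 0.11). Within Cy3 2 of 7 were called higher in untreated mutant cells (median 0.93), against 0.817% of all probes (median of all genes 0.10). The median response of the fibroblast markers to H2O2 was -0.99 without the mutation (7 with a value) and -0.06 with it (9 with a value). The differences between their responses had a median of 0.60 (7 with a value), and none of these markers was called in these 3 comparisons. The part of these markers in the results below was not tested. The deleted gene could not serve as a check of the labels, since the position of its 4 probes relative to the deletion is not given here. Of these Wrn probes, A_52_P498492 was called on the direct arrays (-0.90, limma adjusted p = 0.011), where it was not well above background in Cy5, and the other 3 were called in no comparison. Replicate arrays correlated with r = 0.778 in wild type, 0.624 in mutant and 0.541 on the direct arrays over all probes. Feature Extraction marked between 0.4% and 22.6% of spots as outliers, most of them on wild type replicate 2, and these spots were left out. Marked spots fell on many bright members, so that several values below rest on 1 array.

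Calls at an adjusted p under 0.05 in limma, taken over all probes, were few among these genes. One probe per gene, the brightest, represents it in counts. In wild type cells 1 of the 6 members with a value (Ero1l) rose after H2O2 and none fell, against 0.422% of all probes higher and 0.414% lower. In mutant cells none of 7 was called, with 0% of all probes called higher and 0% lower, and 2493 probes higher and 2452 lower at an unadjusted p under 0.05. The response of mutant minus wild type cells gave no call among 6 members, with 0% of all probes called in either direction. At an unadjusted p under 0.05 that difference counted 1338 probes higher and 1059 lower. On the direct arrays 1 of 7 members had a higher ratio (Ero1l) and none a lower one, against 10.2% and 9.76% of all probes. Over all 17 probes of these members 1 was higher and 4 were lower, and the methods' rule for the genotypes (mean log2 intensity above 6, adjusted p under 0.005) called 1 higher and 2 lower, against 1.36% higher and 0.681% lower of all probes. Within Cy3 no member was called, against 0.817% of all probes higher and 0.507% lower in the untreated mutant. Within Cy5 none was called, against 1.00% higher and 0.472% lower in the treated mutant.

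The median log2 value of the members found by name was 0.01 in wild type cells (6 with a value, all genes 0.01). In mutant cells it was 0.15 (7 with a value, all genes 0.01), and for the difference 0.25 (6 with a value, all genes 0.00). Calr is the gene without a value where 6 are counted, since its representative probe was marked on both wild type arrays. On the direct arrays the median was -0.08 (7 with a value, all genes 0.04). Within Cy3 it was -0.41 against 0.10 for all genes, and within Cy5 -0.24 against 0.11, each over 6 members. The shift of about 0.1 over all genes in these last comparisons differs with the scaling between arrays. The representative probes of the 3 isomerases added no call, and with them the medians were -0.13 in wild type and 0.21 in mutant cells. In a bulk culture, fewer cells that express a gene and less RNA per cell cannot be told apart.

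More probes of the 10 genes were called where each comparison was fitted in limma on its own arrays, with the spread taken from fewer arrays. Of 20 probes with a value, 3 were then higher and 5 lower in wild type cells, against 13.2% and 13.3% of all probes. These were Ero1l A_52_P423424 and both Hyou1 probes, and Pdia3, Calr A_52_P672212, Canx A_51_P242143, Dnajc3 A_52_P329875 and Dnajc3 A_52_P264902. Of the Hyou1 probes, A_52_P375076 was not well above background in either dye on any array. The wild type values of Pdia3 and Canx A_51_P242143 rested on 1 array each, so their spread came from other probes only. Of 22 probes in mutant cells 3 were higher (Pdia4, Pdia6 A_52_P70810 and A_51_P297968) and 5 lower (both Ero1l probes, Pdia6 A_52_P339495, Calr A_52_P672212 and Canx A_51_P242143), against 5.64% and 6.46% of all probes. The difference between the responses then had 1 higher (Pdia3) and 2 lower calls (both Ero1l probes), against 1.16% and 0.777%. The Pdia3 difference rested on 1 wild type array.

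**Figure D1:**
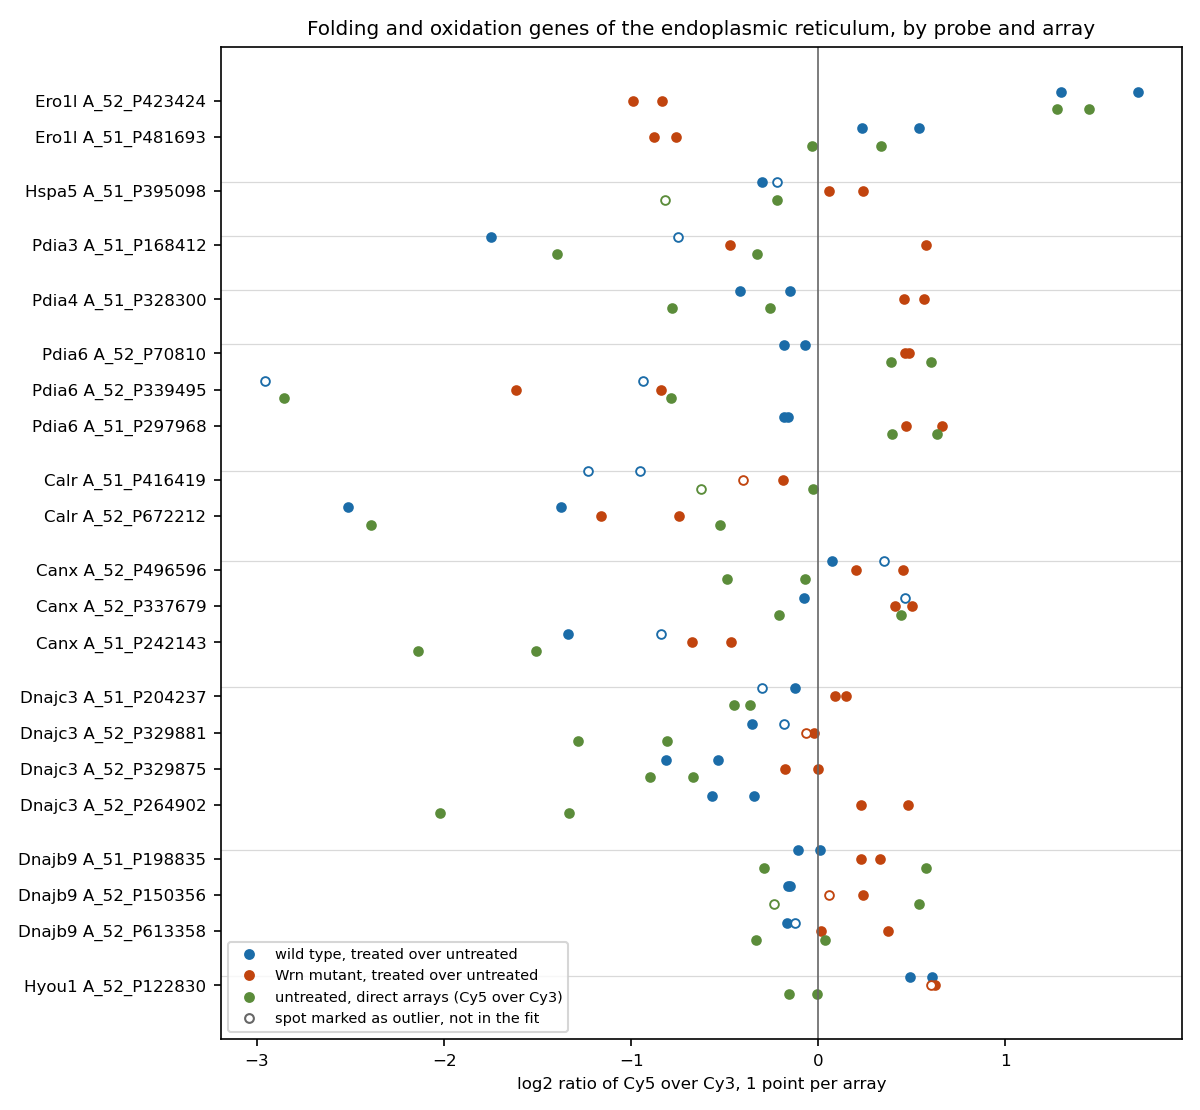
Log2 ratios of Cy5 over Cy3 (horizontal axis) for each probe of the 10 genes (vertical axis), 1 point per array, 2 arrays per comparison. Open points are spots marked as outliers and not fitted, and the Hyou1 probe not well above background is left out. Both Ero1l probes lie above 0 in wild type and below 0 in mutant cells, and the 4 Dnajc3 probes lie below 0 on the direct arrays.

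Ero1l, the oxidase, was the member called after H2O2 in wild type cells with all 6 arrays in the fit. At its brighter probe (A_52_P423424) the log2 ratio of treated over untreated was 1.71 and 1.30 on the 2 wild type arrays. On the 2 mutant arrays it was -0.83 and -0.99. The genotypes thus did not overlap, and treated cells were above untreated cells in both wild type pairs and below them in both mutant pairs. The wild type mean was a 2.84-fold rise (log2 1.50 ± 0.17 SE, 95% interval 1.09 to 1.91, limma adjusted p = 0.0364, n = 2 arrays). The mutant mean was a log2 value of -0.91 ± 0.17 (interval -1.32 to -0.50, adjusted p = 0.217), which did not pass the test. The responses differed by a log2 value of -2.41 ± 0.25 (interval -2.99 to -1.84), with an unadjusted p of 2.04e-05 and an adjusted p of 0.164 in limma.

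Whether that difference is called depends on which arrays estimate the spread. With the 4 treatment arrays fitted without the direct arrays, the adjusted p of the difference in limma was 0.000606, and that of the mutant response was 0.000681 on its own arrays. With the replicate number as a block they were 0.0147 and 0.0145. Leaving out direct replicate 3 or direct replicate 4 repeats the fit on the 4 treatment arrays, since 1 remaining direct array adds nothing to the spread. It is therefore no separate check. The wild type call was lost when any 1 treatment array was left out. No probe of the arrays was then called in wild type cells, so the loss is not particular to Ero1l. On the wild type arrays alone the limma adjusted p of the wild type rise was 2.35e-05, with 13.2% of all probes called higher there. With the replicate block it was 0.00168.

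The second Ero1l probe (A_51_P481693) had log2 ratios of 0.23 and 0.54 on the wild type arrays. On the mutant arrays they were -0.76 and -0.88. The signs were those of the first probe, and the wild type ratios were smaller. Neither response was called (0.39 ± 0.18 SE without the mutation, adjusted p = 0.281, and -0.82 ± 0.18 with it, adjusted p = 0.231, limma), and the difference was -1.21 ± 0.25 (adjusted p = 0.552). On the 4 treatment arrays alone this difference too was called (adjusted p = 0.0155, limma).

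Levels were next compared between the genotypes within each dye. At probe A_52_P423424 the log2 level in untreated cells was 7.12 and 6.20 in the wild type replicates. In untreated mutant replicates it was 7.92 and 7.58. Every untreated mutant sample was thus above every untreated wild type sample. After treatment the wild type levels were 8.83 and 7.49, and the mutant levels were 7.09 and 6.59, so the order of the genotypes was turned. With 2 samples per genotype, how many of all probes separate the genotypes so within a dye was not counted. Untreated mutant minus untreated wild type was 1.10 ± 0.39 (interval 0.29 to 1.90), with a limma adjusted p of 0.215, and treated mutant minus treated wild type was -1.32 ± 0.45 (interval -2.22 to -0.42), with an adjusted p of 0.170.

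These comparisons across arrays depended on single arrays and on scaling. Without wild type replicate 1 the untreated difference was 1.56 (limma adjusted p = 0.00804), and without wild type replicate 2 it was 0.64. Without wild type replicate 2 the treated difference was -1.99 (adjusted p = 0.0164), and without replicate 1 it was -0.65. With no normalization between arrays the untreated difference turned to -0.30, while the median of all probes moved to -0.78, and the treated difference was -2.71 (adjusted p = 0.000372) at a median of all probes of -0.76. At probe A_51_P481693 the untreated levels were 7.83 and 6.20 in wild type and 7.99 and 8.02 in mutant cells. Its untreated difference was 0.99 ± 0.44 (limma adjusted p = 0.344), and 1.80 (adjusted p = 0.00236) without wild type replicate 1 but 0.17 without wild type replicate 2. After treatment this probe was at 8.06 and 6.74 in wild type and at 7.23 and 7.14 in mutant cells. The treated genotypes overlapped, so the turned order was seen at the brighter probe and not here, and the treated difference was -0.22 ± 0.44 (limma adjusted p = 0.932), with 0.45 (adjusted p = 0.597) without wild type replicate 1.

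**Figure D2:**
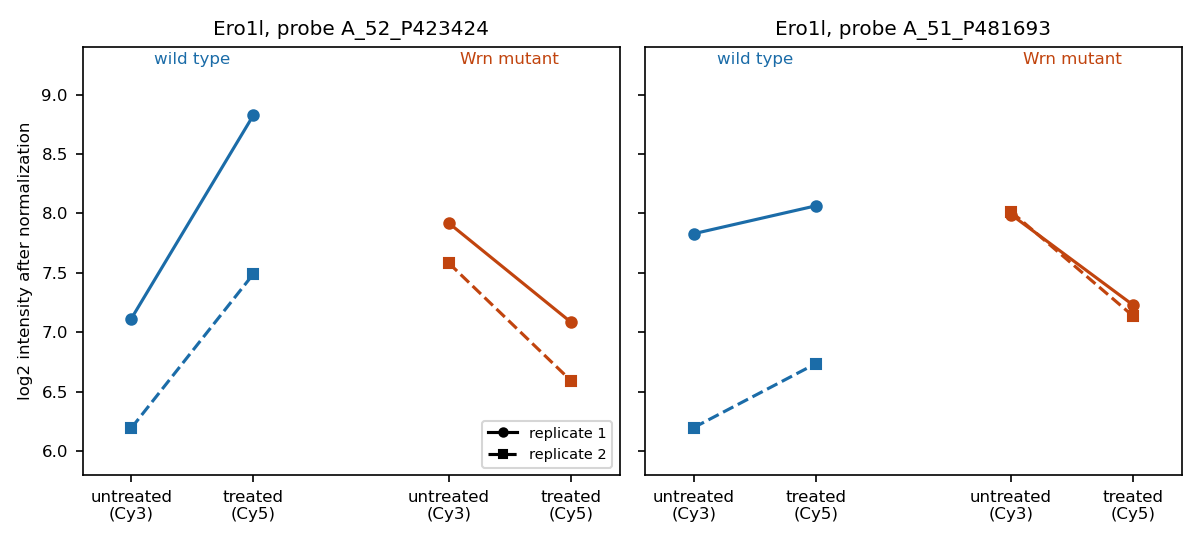
Log2 intensity of both Ero1l probes after normalization (vertical axis) in untreated (Cy3) and treated (Cy5) cells, with a line joining the dyes of 1 array. The lines rise in both wild type replicates and fall in both mutant replicates at each probe.

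The direct arrays gave Ero1l a log2 ratio of Cy5 over Cy3 of 1.27 and 1.45 at probe A_52_P423424. Their mean was 1.36 ± 0.17 (interval 0.95 to 1.77), a 2.57-fold difference with a limma adjusted p of 0.00381. In the direction of the study's list untreated mutant cells were higher, as they were within Cy3, and with the dyes of the labels they were lower. Fitted on the 2 direct arrays alone the adjusted p was 0.0520, which misses the threshold. At probe A_51_P481693 the same ratios were 0.34 and -0.04 (mean 0.15 ± 0.18, adjusted p = 0.574), so the probes disagree in size here.

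The genes with ratios nearest to Ero1l over the 6 arrays were Mthfd2, Gpt2, Cystm1, Wars and Psph. Nearness was the Euclidean distance of log2 ratios at probe A_52_P423424 over 8056 other probes with a mean log2 intensity above 6 and a value on every array. Mthfd2, an enzyme of mitochondrial folate metabolism, was nearest at a distance of 0.55. It had ratios of 1.34 and 1.11 in wild type, -0.79 and -0.84 in mutant, and 0.97 and 1.36 on the direct arrays. Gpt2, an alanine aminotransferase, followed at 0.75, then Cystm1 at 0.99, Wars, a tryptophanyl-tRNA synthetase, and Psph, an enzyme of serine synthesis, both at 1.04. All 5 genes were above 0 on both wild type arrays, below 0 on both mutant arrays and above 0 on both direct arrays. Near the second probe the distances began at 0.70 with Tbpl1, followed by Mcl1, Fam210a, Usp30 and Pvr at up to 0.79, so the 2 probes shared none of their 5 nearest genes.

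**Figure D3:**
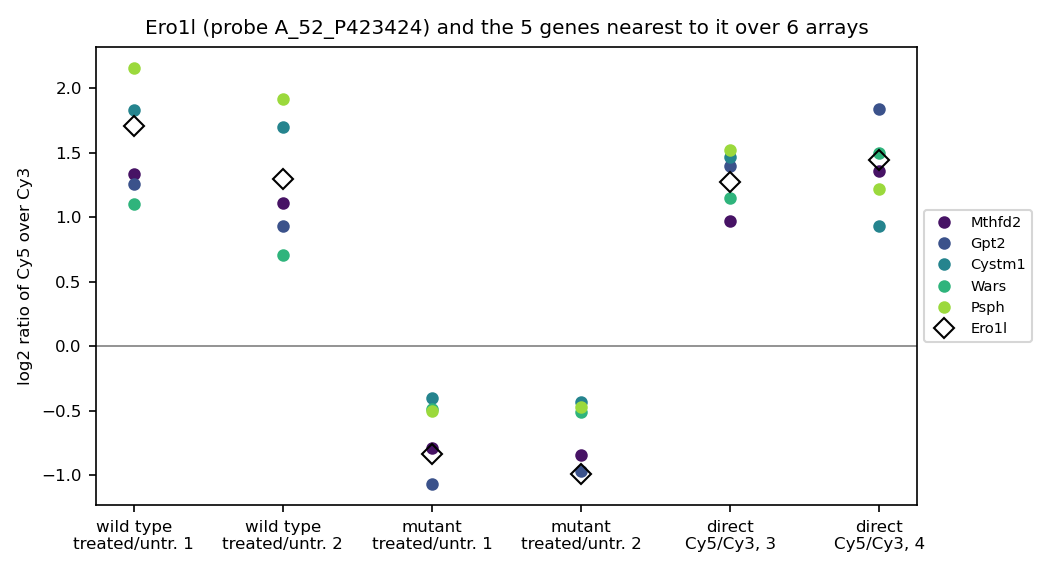
Log2 ratios of Cy5 over Cy3 (vertical axis) on each of the 6 arrays (horizontal axis) for Ero1l, open diamonds, and the 5 genes of smallest Euclidean distance to it. The genes were picked for this likeness, and their points lie between -1.07 and 2.16.

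The protein disulfide isomerases, which Ero1l reoxidises, showed no call in either treatment comparison with all 6 arrays in the fit. For Pdia4 (Cai), the log2 ratio of treated over untreated was -0.42 and -0.15 in wild type cells. In mutant cells it was 0.56 and 0.46. The signs were opposite in the genotypes and reverse to those of Ero1l, and the difference was 0.79 ± 0.26 SE (interval 0.18 to 1.41, limma adjusted p = 0.789). For Pdia6 (Txndc7), probe A_52_P70810 had -0.18 and -0.07 in wild type and 0.46 and 0.49 in mutant cells. Probe A_51_P297968 was alike, with -0.16 and -0.18 in wild type and 0.66 and 0.47 in mutant cells. Their differences were 0.60 ± 0.22 and 0.74 ± 0.23 (adjusted p = 0.817 and 0.749), again below 0 in wild type and above 0 in mutant cells.

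Signs that were opposite in the genotypes on all 4 treatment arrays were seen at 3 of 7 probes of the members found by name and at 6 of 10 with the isomerases, against 11.5% of all 29913 probes with a value on these arrays. The 10 probes belong to 7 genes and are not independent. The ratio of treated over untreated was higher in wild type cells at both Ero1l probes. At the 4 others (Pdia4, 2 of Pdia6, 1 of Dnajc3) this ratio was higher in mutant cells. No such difference passed an adjusted p of 0.05 with all 6 arrays in the limma fit.

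Pdia3 (Grp58) had a fitted log2 ratio of -1.75 in wild type cells on replicate 1 only, since its spot was marked on replicate 2, where the ratio was -0.75. In mutant cells the ratios were -0.47 and 0.58, which spread over 1 unit, and no comparison of this gene was called with all 6 arrays in the fit. The difference between the responses was 1.80. It and the wild type value rest on 1 wild type array, so that no spread between wild type replicates enters them. The direct arrays had Pdia3 at -1.40 and -0.33, Pdia4 at -0.78 and -0.26, and Pdia6 at 0.39 and 0.60 (probe A_52_P70810). Thus Pdia3 and Pdia4 lay below 0 on both direct arrays and Pdia6 above it, with limma adjusted p of 0.128, 0.0916 and 0.0655. The third Pdia6 probe, A_52_P339495, stood apart, with -2.86 and -0.79 on the direct arrays (mean -1.82 ± 0.47, limma adjusted p = 0.0433). That call was lost with marked spots kept (adjusted p = 0.0626) and when any treatment array was left out (adjusted p from 0.0547 to 0.0985). In mutant cells this probe had -0.84 and -1.62 after H2O2, below 0 where the other Pdia6 probes were above it. Its mean of -1.23 ± 0.47 was not called (limma adjusted p = 0.393), but was on the mutant arrays alone (adjusted p = 0.000158). The replicate block and the fits without 1 direct array also called it, but rest on the same 2 mutant arrays. Both wild type spots were marked, at -2.96 and -0.94.

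Hspa5, the central chaperone, showed no change that passed the test. Its log2 ratio of treated over untreated was -0.30 on wild type replicate 1, and -0.22 on replicate 2, where the spot was marked and not fitted. In mutant cells it was 0.24 and 0.06. Wild type values were below 0 and mutant values above it, at sizes of at most 0.30. The difference between the responses was 0.45 ± 0.31 SE (interval -0.35 to 1.24, limma adjusted p = 0.934), which leaves room for a change above 2-fold. The direct ratio was -0.22 on replicate 4 and -0.82 on replicate 3, where it was marked. Untreated mutant cells were at log2 levels of 10.67 and 10.83 in Cy3, against 11.45 in the wild type sample fitted, and the difference was -0.70 ± 0.44 (adjusted p = 0.526).

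The genes with ratios nearest to Hspa5, marked spots kept because it had values on all arrays only then, were Ankrd10, Brms1, Wdr37, Eif5b and Rad50, at distances from 0.17 to 0.24 over 17746 probes. None of these is a member or a gene of the related lists.

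Hyou1, the Hsp70-related exchange factor, was above 0 in both genotypes. Its probe A_52_P122830 had log2 ratios of 0.49 and 0.61 in wild type and 0.63 in mutant replicate 1. The marked spot of mutant replicate 2 had 0.60, so the 4 arrays lay close together, with no gap between the genotypes beyond their spread. The wild type response was 0.55 ± 0.17 SE (limma adjusted p = 0.143) and the mutant response 0.63 ± 0.23 (adjusted p = 0.386), and the difference was 0.08 ± 0.29 (interval -0.62 to 0.77). On the wild type arrays alone the wild type response was called (adjusted p = 0.00923, limma). Hyou1 was near 0 on the direct arrays, at -0.00 and -0.15. Its other probe was not well above background in either dye on any array, and no value is given for it.

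Dnajc3, the J-domain partner of Hspa5 also known as p58IPK, had ratios below 0 on the direct arrays at each of its 4 probes. Probe A_52_P264902 was at -2.02 and -1.33 there, probe A_52_P329881 at -1.29 and -0.81, and probe A_52_P329875 at -0.67 and -0.90. The brightest probe, A_51_P204237, was at -0.36 and -0.45. Both arrays were thus low at every probe, to different degrees. Means were -1.68 ± 0.21 SE (adjusted p = 0.00345), -1.05 ± 0.21 (adjusted p = 0.0260), -0.79 ± 0.17 (adjusted p = 0.0194) and -0.41 ± 0.16 (adjusted p = 0.130) in limma. Thus 3 of the 4 probes were called and the probe representing the gene was not. Without mutant replicate 1 or 2 the calls of A_52_P329881 and A_52_P329875 were lost (adjusted p = 0.0573 and 0.0611), as they were on the direct arrays alone (adjusted p = 0.113 and 0.196). The call of A_52_P264902 held there (adjusted p = 0.0384) and without each array in turn.

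In the direction of the study's list Dnajc3 was lower in untreated mutant cells, and with the dyes of the labels it was higher. Within Cy3 of the treatment arrays the untreated mutant was also lower. At probe A_52_P329875 the wild type log2 levels were 8.28 and 8.15. The mutant levels were 6.95 and 6.62. The genotypes did not overlap, with 2 samples each, and the share of all probes so separated was not counted. The difference was -1.43 ± 0.36 (interval -2.18 to -0.69, limma adjusted p = 0.0533). It was called where only probes with a mean log2 intensity above 6 were tested (limma adjusted p = 0.0215). With marked spots kept it was not called (adjusted p = 0.146). Without wild type replicate 1 the difference was -1.36, and without wild type replicate 2 it was -1.50. The other probes had -1.11 ± 0.53, -0.67 ± 0.39 and -0.47 ± 0.45, none called, and A_51_P204237 was at 0.01 when its marked spot was kept.

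After H2O2 the 4 Dnajc3 probes had wild type means from -0.67 to -0.13 and mutant means from -0.09 to 0.35, with no call where all 6 arrays were fitted. The lowest wild type mean was that of A_52_P329875, with -0.53 and -0.81 on the 2 arrays (limma adjusted p = 0.0885). It was called with normexp (limma adjusted p = 0.0326), on the wild type arrays alone (0.00341) and with the replicate block (0.0159). The wild type mean of A_52_P264902, -0.46, was called on the wild type arrays alone (limma adjusted p = 0.0269). Both were also called with 1 direct array left out, where only the treatment arrays give the spread. Dnajb9, the other J-domain partner, was close to 0. Its 3 probes had fitted wild type ratios between -0.16 and 0.01 and mutant ratios between 0.02 and 0.37. Its representative probe differed between the responses by 0.33 ± 0.31 (interval -0.41 to 1.07), and no Dnajb9 probe was called in any of the 6 comparisons.

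**Figure D4:**
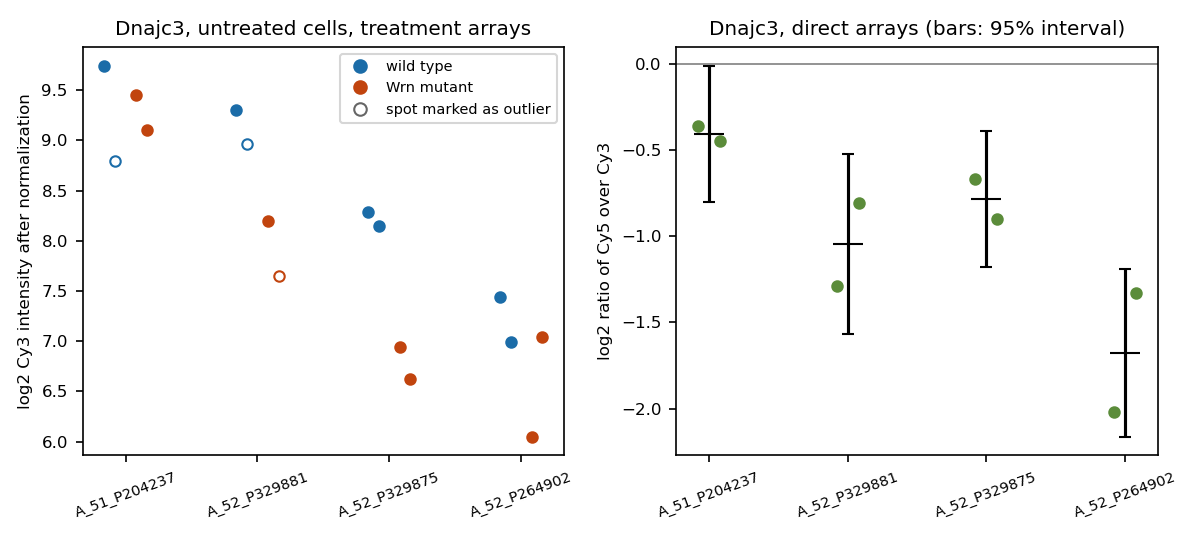
Dnajc3 in untreated cells. Left, log2 Cy3 intensity of each probe on the 4 treatment arrays, to be compared within a probe only. Right, log2 ratio of Cy5 over Cy3 on the 2 direct arrays with the limma mean and its 95% interval. Every direct ratio lies below 0, the lowest at A_52_P264902, while in Cy3 the mean levels of the genotypes are furthest apart at A_52_P329875.

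The lectin chaperones gave values that depended on the probe. For Calr, probe A_52_P672212 had log2 ratios of treated over untreated of -2.51 and -1.38 in wild type cells. In mutant cells it had -0.74 and -1.16. The direct arrays gave -2.39 and -0.52. All 6 arrays lay below 0, whatever RNA the dyes carried. The wild type mean was -1.95 ± 0.44 SE (limma adjusted p = 0.0762). On the arrays of each genotype alone the wild type and mutant values were called (limma adjusted p = 4.28e-05 and 0.000674). The brighter probe, A_51_P416419, was marked on both wild type arrays and had no fitted value there. With marked spots kept it had -1.23 and -0.95 in wild type (mean -1.09 ± 0.20, adjusted p = 0.0436), -0.19 and -0.40 in mutant cells and -0.63 and -0.03 on the direct arrays.

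For Canx, fitted ratios of 2 of the 3 probes lay between -0.49 and 0.50, and the other probe was below 0 throughout. Probe A_52_P496596, the brightest, had a log2 ratio of 0.08 on wild type replicate 1, 0.20 and 0.45 in mutant cells, and -0.07 and -0.49 on the direct arrays. Probe A_52_P337679 had -0.08 in wild type, 0.41 and 0.50 in mutant cells, and 0.44 and -0.21 on the direct arrays. Neither was called in any comparison. Probe A_51_P242143 had -1.34 in wild type, -0.47 and -0.67 in mutant cells, and -2.14 and -1.51 on the direct arrays. Of these the last was called with all arrays in the fit (mean -1.83 ± 0.21, limma adjusted p = 0.00418), so the probes of this gene disagree. The wild type value rested on replicate 1, since the spot of replicate 2, at -0.84, was marked. It was called with normexp, with the replicate block and on the wild type arrays alone. None of these fits held a spread between wild type replicates of this probe.

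The probes Canx A_51_P242143, Calr A_52_P672212 and Pdia6 A_52_P339495 had log2 ratios of -0.47 or lower on every array, marked spots included. They are among 6 of the 22 probes of all 10 genes that were below 0 on all 6 arrays. The others were Calr A_51_P416419 and the Dnajc3 probes A_52_P329881 and A_52_P329875, both called on the direct arrays. Of all 38683 probes with a value on every array, 9.91% were below 0 on all 6. Cy5 of the direct arrays was also set against Cy3 of the treatment arrays, which held untreated RNA of other cultures on other arrays. If Cy5 of the direct arrays held the mutant, its mean minus the mutant's mean Cy3 level of the treatment arrays ran from -1.10 at the Pdia6 probe to -0.93 at the Calr probe, with the Canx probe between. If it held the wild type, its mean minus the wild type Cy3 level was -1.84 at the Canx and -0.99 at the Calr probe. At Ero1l A_52_P423424 the same values were 0.76 against the mutant and 1.86 against the wild type. At Dnajc3 A_52_P264902, A_52_P329881 and A_52_P329875 they were -0.76, -0.43 and 0.55 against the mutant. Against the wild type these Dnajc3 probes had -1.43, -1.54 and -0.88. The part of the dyes in these ratios was not tested.

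Other genes of ER protein folding were read from 6 lists that do not contain the members, with 1 probe per gene. In wild type cells 1 gene of all lists was called, Trib3, a pseudokinase of the stress response, which rose with log2 ratios of 3.42 and 2.71 (mean 3.06 ± 0.24 SE, limma adjusted p = 0.0364). In mutant cells its ratio was -2.38 on the 1 array with a fitted value. No list gene was called in mutant cells or for the difference between the responses. List medians lay between -0.10 and 0.13 in wild type cells and between -0.34 and 0.09 in mutant cells, against 0.01 for all genes in each.

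On the direct arrays more genes of these lists were called, in the setting of a comparison with many calls (3226 higher and 2426 lower of 28861 genes). Of all probes 10.2% were called higher and 9.76% lower. Of 18 other genes of the disulfide isomerase family and oxidases 4 were higher and 2 lower. The largest were Qsox1, a secreted sulfhydryl oxidase, at -1.62 ± 0.23 (limma adjusted p = 0.00771), Gpx7, an ER peroxidase, at 1.18 ± 0.16 (adjusted p = 0.00706), and Vkorc1, which reduces vitamin K, at 1.07 ± 0.20 (adjusted p = 0.0161). Qsox1 was below 0 on every array with a fitted value. After H2O2 it was at -1.43 on wild type replicate 1 and at -0.43 and -0.61 in mutant cells. The part of the dyes in its ratios was not tested. Of 9 genes of lectin chaperones and glycan processing 2 were higher and 2 lower, with Calr3 at 1.71 and Uggt1 and Uggt2, the glucosyltransferases that return unfolded glycoproteins to the lectins, at -1.46 and -1.17. Of 20 chaperones, cochaperones and prolyl isomerases 7 were higher and 1 lower, among them Ppic at 1.39, Sdf2 at 1.19 and Fkbp9 at 0.95, with a list median of 0.42.

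Of 19 genes of ER-associated degradation 5 were higher and none lower, led by Herpud1 at 1.52 ± 0.22, Os9 at 1.24 and Derl1 at 1.06. Of 21 genes of the translocon, signal peptidase and oligosaccharyltransferase 2 were higher and 2 lower, with Ssr2 at -1.47, Sec61b at 1.40 and Sec11c at -1.30. These counts lie near the shares of all probes (10.2% higher and 9.76% lower). Ssr2 was at -0.83 and not called (adjusted p = 0.0883, limma) with marked spots kept. Of 15 sensors and factors of the unfolded protein response 3 were higher and none lower. These were Trib3 at 4.90, Ddit3, which encodes CHOP, at 2.37, each with a fitted value on 1 direct array, and Eif2ak3, which encodes PERK, at 0.81 ± 0.16. List medians lay between 0.14 and 0.42 against 0.04 for all genes, and with the dyes of the labels each of these signs turns.

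**Figure D5:**
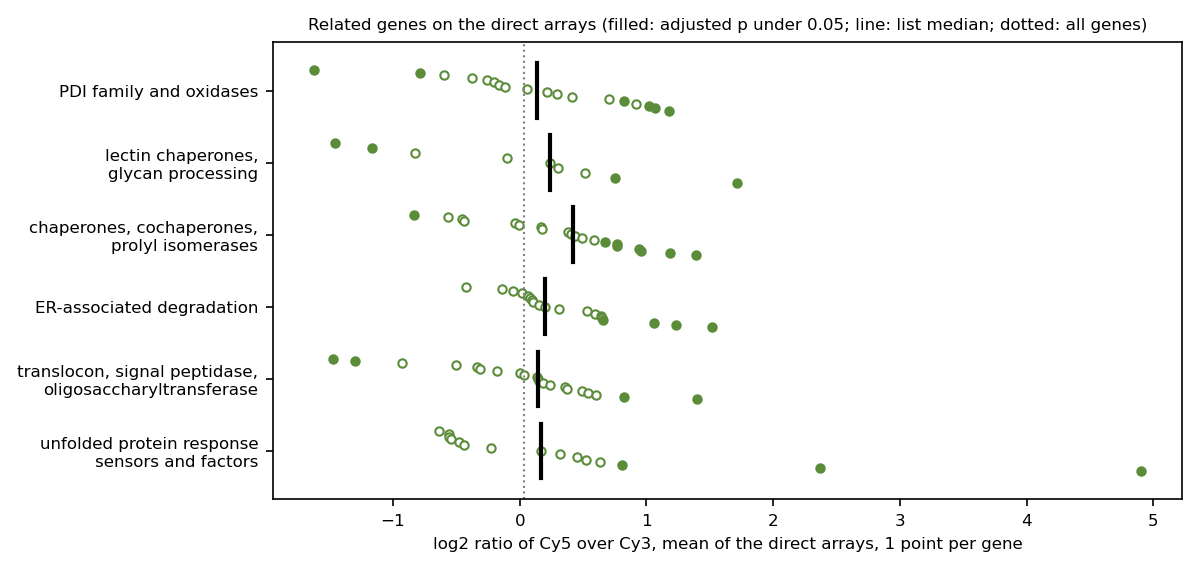
Mean log2 ratio of Cy5 over Cy3 on the direct arrays (horizontal axis) for the genes of 6 related lists, 1 point per gene, filled where the adjusted p was under 0.05. Black lines are list medians and the dotted line is the median of all genes, 0.04; Trib3 lies farthest out at 4.90.

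Within Cy3 of the treatment arrays Ddit3 and Trib3 were higher in untreated mutant cells, by 2.86 ± 0.45 and 4.27 ± 0.44. The Ddit3 value rested on 1 wild type array, replicate 2, and the Trib3 value on 1 mutant array. Like Ero1l, Ddit3 had ratios above 0 in wild type cells (1.33 on replicate 2) and below 0 in mutant cells (-1.08 and -0.95). Within Cy5 Fkbp14, Derl2 and Eif2ak3 were called as higher in treated mutant cells, by 1.97 ± 0.52, 1.69 ± 0.43 and 1.56 ± 0.42. None of these Cy5 calls held with marked spots kept (adjusted p from 0.163 to 0.289). Xbp1, a factor of the chaperone branch, was at -1.50 on wild type replicate 1 and at -0.38 and -0.39 in mutant cells (adjusted p = 0.0509 and 0.422), and with marked spots kept its wild type value was called (-1.45, adjusted p = 0.0239). Hsp90b1 (Tra1), the Hsp90 chaperone of the ER, was at -0.57 in wild type and 0.31 in mutant cells, each on 1 array. P4hb, the most familiar disulfide isomerase, and Atf4 had no fitted wild type value, and with marked spots kept they were at -0.97 and -0.32 there (adjusted p = 0.0958 and 0.622).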

How the data were processed

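RNA of 6 pairs of cultures was hybridised to 6 two-colour arrays, 1 per slide. The authors deposited, per array, Feature Extraction's mean signal and local background median intensity for each spot in Cy3 and Cy5, its outlier flags, and its own log10 ratio (software A.7.5.1 by the file headers). They also deposited a series table of log2 ratios, background subtracted and normalized by loess, whose columns had medians from 0.002 to 0.018 and correlated with the ratios computed here with r of at least 0.9995. RNA is called total by the labels and cytoplasmic by the methods. Starting from the intensities, limma 3.58.1 (R 4.3.3) gave log2 ratios after these steps: background subtraction, loess with control spots at weight 0, marked spots then left out, saturated spots kept, spots of a probe averaged. All arrays were fitted together (lmFit, eBayes), with two-sided p-values adjusted by Benjamini-Hochberg across every measured probe that is no control. With 2 arrays per comparison, the number of arrays limits the precision. For levels per dye, arrays were matched by Aquantile before marked spots were removed, because on wild type replicate 2 60.6% of bright spots were marked. Named genes were every member with every probe, called genes of the related lists (at most 3 per list and comparison), Atf4, Ddit3, Xbp1, Hsp90b1 and P4hb, and the 5 nearest genes of Hspa5 and Ero1l. Of 41174 probes, 31034 were named through RefSeq tables of GRCm38.p6. The members and lists were chosen with earlier results of these data known. The fits were tested on simulated data. Alternatives were normexp (offset 50), both deposited log ratios, marked spots kept, filters on dim probes and spots, separate fits, a replicate block, other scaling, the intraspot correlation, each array left out and the labels' dyes. Plots used Python 3.11.15 and matplotlib 3.10.9.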

Additional observations from a re-analysis of the deposited data

Results flagged for a closer look

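Every array of one genotype moved one way and every array of the other the opposite way at 6 probes of these genes, and the difference between the responses, mutant minus wild type, was tested for each in limma. It was -2.41 (adjusted p = 0.164) at Ero1l A_52_P423424 and -1.21 (adjusted p = 0.552) at Ero1l A_51_P481693. It was 0.79 (adjusted p = 0.789) at Pdia4 A_51_P328300, 0.60 (adjusted p = 0.817) at Pdia6 A_52_P70810, 0.74 (adjusted p = 0.749) at Pdia6 A_51_P297968 and 0.81 (adjusted p = 0.808) at Dnajc3 A_52_P264902. With 2 arrays per genotype, 11.5% of all probes behaved so.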

How the results depend on the processing

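Among the 7 representative probes, the wild type count of 1 call became 2 with the authors' series table, with marked spots kept, on the wild type arrays alone and with the replicate number as a block, and 0 by the methods' rule. Leaving out arrays gave 0 to 2 calls: 0 without any one treatment array and 2 without either direct array. The mutant response and the difference had 0 calls, and 1 each on their own arrays and with the replicate block; leaving out arrays gave 0 to 1 for each. The direct count of 1 became 2 with normexp, 0 on the direct arrays alone and 5 over all 17 probes, and 1 to 2 with an array left out. With no normalization between arrays the Cy3 and Cy5 counts of 0 became 5 and 3, and with an array left out they were 0 to 1. The same-numbered arrays share only a number: their deviations correlated with r = 0.12 over 2 pairs. Over the members' values the block kept the side of the threshold in 91 and brought 11 past it.

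With the dyes of the labels the called direct values turned to -1.36 (Ero1l A_52_P423424), 1.82 (Pdia6 A_52_P339495), 1.83 (Canx A_51_P242143), 1.05, 0.79 and 1.68 (Dnajc3 A_52_P329881, A_52_P329875 and A_52_P264902). With no normalization between arrays the Cy3 differences of Pdia6 A_52_P70810, Pdia6 A_51_P297968 and Dnajb9 A_51_P198835 turned to -1.25, -1.41 and -1.22, while the median of all probes moved to -0.78. Of 1616 values of the members under all alternatives, 105 passed the threshold and 21 fell short of it. The sign changed in 75, of which the 9 above were called in one of the fits and the other 66 in neither.

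Counts over all probes, higher and lower, went in wild type cells from 170 and 167 to 481 and 501 with marked spots kept, 1273 and 769 with normexp, 433 and 145 with Feature Extraction's ratio, 56 and 72 for spots well above background, 3359 and 3418 with the block, 5312 and 5376 on the wild type arrays alone, and 0 without any one treatment array. The difference went from 0 to 469 and 313 on its own arrays and to 38 and 47 with the block, and the mutant response from 0 to 2314 and 2654 and to 710 and 1387. The direct counts of 4188 and 4011 fell to 795 and 742 on their own arrays. The Cy3 counts of 329 and 204 became 86 and 9700 with no normalization between arrays, 75 and 26 with normexp and 2884 and 1623 without wild type replicate 1, and the Cy5 counts of 403 and 190 became 88 and 7156, 38 and 10, and 1577 and 748. These causes were not tested. Slide and scan date could not be fitted as blocks, since each slide held 1 array. Signal limits what can be seen: 41.5% to 69.2% of Cy5 spots were well above background, against 75.8% to 90.0% in Cy3.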
